A study of Mus musculus with 22 samples.

Results

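Cerebellar granule cells were compared directly with cortical astrocytes, gene by gene and transcript by transcript, on messenger RNA purified with tagged ribosomes. The members are the first-batch libraries of these cell types, 3 of each, which makes 6 of the 22 libraries in the series. The pair was taken because an earlier analysis of the same data had found its use of codons the least alike, and codon use is not examined here. All mice were 6 weeks old and carried 1 conditional allele of the ribosomal protein gene Rpl22 (Rpl22 Fl/+), which gains an HA tag in cells with Cre recombinase. The tagged ribosomes were immunoprecipitated from fresh tissue (the RiboTag method), and stranded libraries were made from their polyA RNA. The granule cell group was Rpl22 Fl/+, Gabra6-Cre, sampled from cerebellum. The astrocyte group was Rpl22 Fl/+, Aldh1-cre, sampled from cortex; the study's methods list the driver as an Aldh1l1-cre/ERT2 transgene, and mice of inducible lines were given tamoxifen. Tissue, Cre line and tamoxifen therefore went with the cell type and cannot be told apart from it. In both groups replicate 1 was female and replicates 2 and 3 were male. Total estimated counts were 66185898, 48481047 and 54194936 in granule cell replicates 1 to 3, and 61690065, 64860407 and 71440915 in astrocyte replicates 1 to 3.

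Cerebellar granule cells are small glutamatergic neurons that receive mossy fibre input, are held under GABAergic inhibition by Golgi cells, and send parallel fibres to Purkinje cell dendrites. Astrocytes do not fire action potentials; they clear glutamate, GABA and potassium from the extracellular space, contact blood vessels with their endfeet, and supply neurons with glutamine, lactate and lipoprotein-borne cholesterol. Both cells express many members of the same gene families, so that members and transcripts were compared as well as single genes.

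The labels were checked first against a marker of each cell type. Both markers are the genes after which the study's methods name the Cre drivers, so that they are not independent of the selection of cells. Gabra6, the GABA-A receptor α6 subunit (ENSMUSG00000020428.13, chromosome 11 from 42306437 to 42321072 of GRCm38), was at 3104, 3158 and 3215 CPM (counts scaled by library size and composition) in the granule cell libraries. In the astrocyte libraries it was at 0.0752, 0.0580 and 0.0696 CPM, from 5, 4 and 5 counts. The groups did not overlap, and the fold was 45420 (15.47 on the log2 scale with an edgeR standard error of 0.12, adjusted p = 1.5e-13). Aldh1l1, a folate enzyme (ENSMUSG00000030088.15, chromosome 6 from 90486427 to 90600203), was at 1.15, 1.32 and 1.31 CPM in granule cells and at 584, 584 and 678 CPM in astrocytes. It was 491-fold higher in astrocytes (−8.94 on the log2 scale with an edgeR standard error of 0.11, adjusted p = 3.7e-13), again with no overlap. Over wider lists, 6 of 6 granule cell markers (median log2 fold change 8.09) and 3 of 3 pan-neuronal markers (median 3.70) were higher in granule cells, and 9 of 9 astrocyte markers (median −8.17) were higher in astrocytes. The summed TPM (abundance corrected for transcript length and scaled to a common total) of the granule cell markers was 8489 ± 30.7 in granule cells and 91.6 ± 7.43 in astrocytes (SD, n = 3). For the astrocyte markers the sums were 201, 183 and 166 TPM in granule cells and 17156, 15754 and 16389 TPM in astrocytes. The pan-neuronal markers Rbfox3, Snap25 and Syt1 summed to 12267 ± 90.1 TPM in granule cells and to 764 ± 120 TPM in astrocytes (SD, n = 3). Their mRNA was thus present in the astrocyte libraries, and its source was not tested. Xist had 752 and 7879 counts in the female granule cell and astrocyte libraries and at most 4 in each male one, as labelled.

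Of 20060 genes tested, 16784 (83.7%) differed at an adjusted p of 0.05 or less (edgeR, Benjamini-Hochberg over all genes tested). A gene was called higher in a cell type when it also differed at least 2-fold. By this rule 4385 genes (21.9%) were higher in granule cells and 7391 (36.8%) were higher in astrocytes, while 5008 passed the test and differed less than 2-fold. The median log2 fold change over all genes tested was −0.23, and upper quartile scaling in place of TMM shifts it by −0.137. This median and the shares of 21.9% and 36.8% are the reference for the counts of each gene list below. Large differences were more numerous on the astrocyte side, where 3971 genes differed at least 10-fold, 1178 at least 100-fold and 89 at least 1000-fold. On the granule cell side these counts were 540, 71 and 18. In astrocytes, 650 of the called genes had no count in any granule cell library. Of the genes called in granule cells, 37 had none in any astrocyte library. Library sizes after composition scaling were larger in astrocytes, at 66463451 to 71877650 against 46286469 to 63438946 in granule cells. Most lists of other-cell markers were also higher in the astrocyte libraries, as given below. The part of depth and of other cells in these unequal counts was not tested. The libraries of the groups did not overlap for 17180 genes (85.6%). Genes called in granule cells held 43.6% of the TPM of granule cell libraries and 9.48% of that of astrocyte libraries; genes called in astrocytes held 42.9% of astrocyte TPM and 5.82% of granule cell TPM. Across the genes tested, Pearson's r of log2(CPM + 1) was 0.998 to 0.999 between granule cell libraries, 0.996 to 0.998 between astrocyte libraries and 0.797 to 0.803 between the groups; genes are not independent replicates. These are bulk samples, in which fewer cells of a type and less RNA per cell cannot be told apart.

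**Figure D1:**
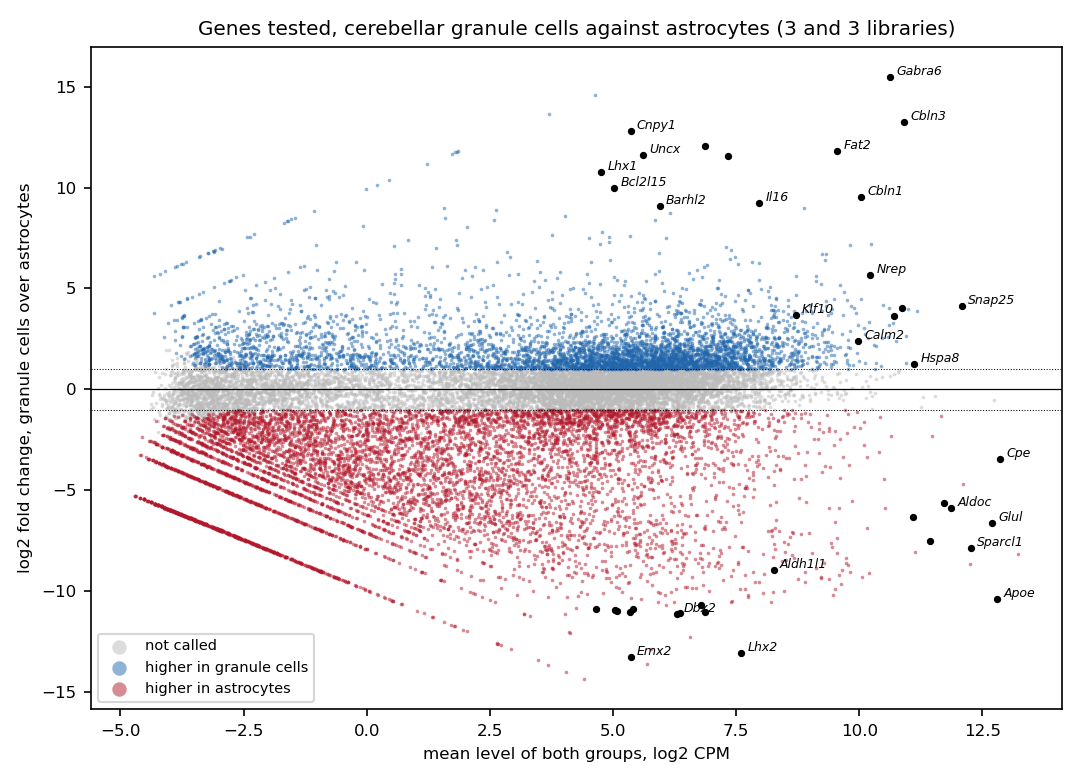
Each point is a gene tested, with the mean level of both groups (log2 CPM) on the x axis and the log2 fold change of granule cells over astrocytes on the y axis; colours mark the 4385 genes called higher in granule cells and the 7391 called higher in astrocytes. Gabra6 stands highest, at 15.47.

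The genes with the largest folds on the granule cell side (protein-coding, with a mean of at least 50 CPM) began with Gabra6. Next came Cbln3, which encodes a secreted cerebellin retained in granule cells until it pairs with Cbln1 (ENSMUSG00000040380.14, chromosome 14 from 55878913 to 55884392). It was at 3793, 3906 and 3840 CPM in granule cells and at 0.421, 0.362 and 0.417 CPM in astrocytes, a fold of 9560 (log2 fold change 13.22, standard error 0.10, adjusted p = 1.5e-13). Cbln1, the presynaptic organizer that bridges parallel fibre neurexin to the Purkinje cell receptor GluD2, was at 2147, 2099 and 2045 CPM against 2.27, 2.84 and 3.42 CPM, which is 735-fold. For both cerebellins every granule cell library lay far above every astrocyte library. Cnpy1, a gene of the midbrain and hindbrain, had 2 counts in all astrocyte libraries together; its ratio was 8542, with a 95% counting interval from 2364 to 70539 (Clopper-Pearson, counting error only). Crtam, an immunoglobulin family adhesion molecule, was 4237-fold higher (233 ± 6.81 CPM against 0.0535 ± 0.0231, SD, n = 3), and Fat2, a giant cadherin, 3621-fold (1508 ± 66.2 CPM against 0.412 ± 0.123, SD, n = 3). The homeodomain factors Uncx (3152-fold), En2 (2981-fold), Lhx1 (1752-fold) and Barhl2 (539-fold), the Bcl2 family member Bcl2l15 (1008-fold) and the PDZ domain protein and cytokine precursor Il16 (607-fold) complete these 12. The folds of Uncx and Lhx1 rest on 6 counts each in the astrocyte libraries together. All were without overlap between the groups.

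By difference of mean TPM, the 8 leading genes of granule cells were Snap25, Klf10, Calm2, Gabra6, Nrep, Tubb4a, Eef1a2 and Hspa8. Snap25, a SNARE protein of vesicle fusion (ENSMUSG00000027273.13, chromosome 2 from 136713453 to 136782428), was at 10561, 10712 and 10686 TPM in granule cells and at 570, 667 and 461 TPM in astrocytes. It was 17.3-fold higher on the CPM scale (log2 fold change 4.12, standard error 0.12, adjusted p = 1.4e-10), with no overlap. Klf10, a zinc finger factor, was at 12057, 11530 and 8440 TPM against 479, 787 and 543 TPM, with replicate 3 the lowest of the granule cell libraries. Nrep, a small protein of regenerating neurons, was 51.5-fold higher (2936 TPM against 48.3), and Tubb4a, a β-tubulin, 16.2-fold (2945 against 157). The translation factor Eef1a2, the form of eEF1A used by neurons and muscle, was 12.4-fold higher, at 2927 TPM against 204. The calcium sensor Calm2 (5.19-fold) and the chaperone Hspa8 (2.36-fold) had smaller folds and were abundant in both groups.

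Transcription factors that specify or maintain granule cells were higher in granule cells for 16 of 17 listed, with a median log2 fold change of 4.12. Neurod1, a basic helix-loop-helix factor of granule cell differentiation (ENSMUSG00000034701.9, chromosome 2 from 79452521 to 79456751), was at 943, 933 and 949 CPM against 1.73, 2.16 and 1.74 CPM, which is 501-fold (log2 fold change 8.97, standard error 0.10, adjusted p = 3.2e-13). Zic1, a zinc finger factor of the dorsal neural tube and cerebellum, was at 2394, 2414 and 2346 CPM against 12.5, 16.5 and 19.6 CPM (147-fold). Barhl1 had no count in any astrocyte library and 51.9, 49.7 and 46.9 CPM in granule cells, which is at least 1139-fold higher against a floor of 3 counts per library. Zic1 mRNA in the astrocyte libraries, at 7.37 TPM, exceeded that in layer V cortical neurons of the same series, at 0.470 TPM. Mef2c, an activity-regulated factor, went the other way (−1.85, standard error 0.09, adjusted p = 7.3e-09), with 17.0 TPM in granule cells, 56.8 TPM in astrocytes and 430 TPM in layer V cortical neurons.

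Genes of regional patterning had members on both sides. Of 19 listed genes 16 were tested, and 7 were higher in granule cells and 7 in astrocytes (median −0.72); Gbx2, Hoxa5 and Hoxb5 had too few counts. Emx2, a homeobox factor of the developing cortex (ENSMUSG00000043969.4, chromosome 19 from 59458372 to 59465357), had 1, 0 and 0 counts in granule cells against 5331, 5419 and 6266 in astrocytes, a ratio of 13212 (95% counting interval from 2371 to 521860), and Emx1 had a ratio of 915 (164 to 36156). Lhx2 was 8576-fold higher in astrocytes, a fold that rests on 7 counts in the granule cell libraries together, at 390 ± 13.9 CPM against 0.0412 ± 0.0208 (SD, n = 3). The midbrain and hindbrain factors En2 and En1 were 2981-fold and 333-fold higher in granule cells, and En1 was at 11.9 CPM there against 7 counts in the astrocyte libraries together. The granule cell libraries thus held a single count each of Emx1 and Emx2, and tissue of origin and cell type cannot be told apart for them. Emx1 was at 36.7 TPM in layer V cortical neurons and at 6.02 TPM in astrocytes, whereas Emx2 was at 1.12 TPM in layer V neurons and at 72.7 TPM in astrocytes.

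Most of the listed machinery of transmitter release was higher in granule cells. Of 27 genes, 25 were higher in granule cells and 1 in astrocytes, another was lower in granule cells by less than 2-fold, and the median log2 fold change was 2.60. Their summed TPM was 25100, 24932 and 24466 in granule cells against 3050, 3168 and 2569 in astrocytes. Syt2, the fast calcium sensor of release, differed most, with 1208, 1168 and 1213 CPM against 11.6 ± 0.985 CPM (SD, n = 3) in astrocytes (103-fold, log2 fold change 6.69, standard error 0.09, adjusted p = 4.4e-13). Among the SNARE proteins, Snap25 (17.3-fold) and Vamp1 (10.9-fold) were higher in granule cells. The gene called in the other direction was Stx1a, a syntaxin of the presynaptic membrane, which was 26.8-fold higher in astrocytes (log2 fold change −4.74, standard error 0.11, adjusted p = 2.2e-11). Stx1a was at 2.70, 2.31 and 2.37 TPM in granule cells, at 74.0, 70.4 and 50.7 TPM in astrocytes, and at 459 TPM in layer V cortical neurons. Granule cells thus carried very little Stx1a beside their abundant Snap25.

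GABA-A receptor subunits parted into complementary sets, with 6 of 13 higher in granule cells and 7 in astrocytes (median −4.17). The granule cell set included Gabra6, Gabrb2 and Gabrd, subunits of tonic inhibition. Gabrd, whose subunit joins α6 in extrasynaptic receptors, was 20.6-fold higher (354 TPM against 14.2), and Gabrb2 15.7-fold. The astrocyte set was Gabra2, Gabra3, Gabra4, Gabra5, Gabrb1, Gabrg1 and Gabrg3. Gabrg1 differed most in this set (312-fold, 71.5 TPM in astrocytes against 0.295), followed by Gabrg3 (269-fold, from 7 counts in the granule cell libraries together), Gabra2 (86.7-fold, 71.1 TPM against 0.823), Gabra5 (75.6-fold), Gabra3 (24.7-fold), Gabrb1 (18.5-fold) and Gabra4 (−4.17 on the log2 scale). Levels in layer V cortical neurons divide this set. Gabrg1 and Gabrb1 were lower there (4.00 and 20.1 TPM) than in astrocytes (71.5 and 48.7 TPM), while Gabra3 and Gabra5 were higher there (74.0 and 55.8 TPM) than in astrocytes (16.2 and 11.1 TPM). Summed TPM was 5204, 5125 and 5183 in granule cells, most of it Gabra6, and 376, 386 and 348 in astrocytes.

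Ionotropic glutamate receptor genes were higher in granule cells for 4 of 17 and in astrocytes for 10 of 17 (median −1.39). The granule cell members were the AMPA subunit Gria4 (12.7-fold, 195 TPM against 12.3), the kainate subunit Grik2 (6.62-fold), and the NMDA subunits Grin2a (4.74-fold) and Grin1 (4.37-fold, 256 TPM against 50.1). On the astrocyte side the largest differences were in Grid1 (119-fold), Grin3a (84.2-fold), Grin2b (39.4-fold) and Gria1 (17.7-fold). Grin2b was at 9.21 TPM in astrocytes and at 74.0 TPM in layer V cortical neurons, and Grin3a at 15.5 and 8.52 TPM. The AMPA subunits Gria4 and Gria1 and the NMDA subunits Grin2a and Grin2b thus went opposite ways between the groups.

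Of 26 G protein-coupled receptors for transmitters, 20 were higher in astrocytes and 4 in granule cells (median −4.13). The granule cell members included Grm4 (106-fold, 488 TPM against 4.07), the cannabinoid receptor Cnr1 (log2 fold change 3.91, 322 TPM against 18.4) and the adenosine receptor Adora1 (3.34-fold). Grm4 and Cnr1 act at parallel fibre terminals, where they reduce release. In astrocytes the receptor with the largest fold was Grm3, which couples to Gi. Grm3 was at 353, 365 and 436 CPM there against 0.520, 0.346 and 0.312 CPM in granule cells (951-fold, log2 fold change −9.89, standard error 0.15, adjusted p = 1.3e-12). The muscarinic receptor Chrm1 (625-fold), the adenosine receptor Adora2b (529-fold) and the serotonin receptor Htr1a (122-fold) followed, the folds of Adora2b and Htr1a resting on 7 and 5 counts in the granule cell libraries together. Adora2b was at 25.4 TPM in astrocytes and 0.140 TPM in layer V cortical neurons, whereas Chrm1 was at 16.9 TPM in astrocytes and 87.5 TPM in layer V neurons, and Htr1a at 1.66 and 9.95 TPM.

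Voltage-gated and background ion channels were higher in granule cells for 20 of 31 genes and in astrocytes for 8 (median 2.20). The granule cell side was led by potassium channels of fast repolarization, among them Kcnc1 (22.5-fold), Kcna1 (19.0-fold) and Kcnd2 (17.7-fold). Kcnc1 was at 1352, 1402 and 1365 CPM in granule cells and at 58.6, 59.9 and 64.7 CPM in astrocytes (log2 fold change 4.49, standard error 0.07, adjusted p = 1.1e-12). On the astrocyte side stood the inward rectifiers Kcnj16 (520-fold, 130 TPM against 0.371) and Kcnj10 (386-fold, 555 TPM against 1.64), which carry potassium buffering. Kcnc2 (113-fold) and the T-type calcium channel Cacna1h (84.9-fold) were also higher in astrocytes; Kcnc2 was at 8.58 TPM there and at 20.6 TPM in layer V cortical neurons. Among sodium pump and chloride cotransporter genes, 6 of 14 were higher in granule cells and 5 in astrocytes (median 0.38). The shares over all genes tested were 21.9% and 36.8% (median −0.23), so that the astrocyte count was near its share. Slc12a5 (6.25-fold), which extrudes chloride, and Slc12a2 (4.04-fold), which imports it, were higher in granule cells. Slc12a4 (182-fold), Fxyd1, which modulates the pump (−6.67 on the log2 scale), and Slc12a7 (93.9-fold) were higher in astrocytes.

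On the astrocyte side, the 12 genes with the largest folds included Emx2, Lhx2, Dbx2, Myoc, Oaf, Cldn10, Fam163a, Tmem176a, Steap3, Ppp1r3g and Gfra1. Below the forebrain factors, the homeobox gene Dbx2 was 2239-fold higher (158 ± 7.94 CPM against 0.0713 ± 0.0323, SD, n = 3), the secreted glycoprotein gene Myoc 2138-fold (164 ± 12.2 CPM against 0.0785 ± 0.0447, SD, n = 3) and the claudin Cldn10 2060-fold (235 ± 13.1 CPM against 0.117 ± 0.0670, SD, n = 3). Oaf (2084-fold), Fam163a (2049-fold), Tmem176a (1976-fold), the endosomal metal reductase Steap3 (1866-fold), the glycogen-targeting phosphatase subunit Ppp1r3g (1853-fold) and the GDNF co-receptor Gfra1 (1658-fold) lay close together. Each of them was at or below 4.77 TPM in layer V cortical neurons. The granule cell libraries held at most traces of these mRNAs, between 0.0255 and 0.124 CPM on average for Dbx2 and those after it. The folds of Oaf, Fam163a, Tmem176a, Steap3 and Ppp1r3g rest on 6, 5, 5, 4 and 7 counts in the granule cell libraries together and are imprecise to that extent.

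By difference of mean TPM, the astrocyte side was led by Apoe, Cpe, Cst3, Glul, Sparcl1, Aldoc, Ndrg2 and Clu. Apoe, the lipoprotein of astrocytes (ENSMUSG00000002985.16, chromosome 7 from 19696109 to 19699188), was at 31686, 29943 and 30401 TPM in astrocytes and at 27.7, 23.8 and 22.0 TPM in granule cells. It was 1339-fold higher (log2 fold change −10.39, standard error 0.12, adjusted p = 3.6e-13), and in each astrocyte library its TPM exceeded that of any other gene named. Carboxypeptidase E (Cpe, 10.9-fold), which processes peptides, was abundant in both groups, at 1707 and 14321 TPM. The protease inhibitor cystatin C (Cst3, 81.1-fold), the matricellular protein Sparcl1 (232-fold), Ndrg2 (181-fold) and the chaperone clusterin (Clu, 49.4-fold) were at 10619, 8075, 6881 and 6843 TPM in astrocytes. Of these 8 genes, 4 encode proteins that are secreted in the extracellular space as lipid carriers, inhibitors or matrix proteins, namely Apoe, Clu, Cst3 and Sparcl1.

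Uptake and recycling of glutamate and GABA was split between the cell types, with 11 of 18 genes higher in astrocytes and 6 in granule cells (median −3.22). Slc1a2, the main glutamate transporter GLT-1 (ENSMUSG00000005089.15, chromosome 2 from 102658659 to 102790784), was at 18978, 17806 and 20299 CPM in astrocytes and at 65.6, 63.8 and 68.5 CPM in granule cells (288-fold, log2 fold change −8.17, standard error 0.10, adjusted p = 3.6e-13). The GABA transporter Slc6a11 was 1180-fold higher, the glutamine exporter Slc38a3 568-fold, the glutamate transporter Slc1a3 266-fold, and glutamine synthetase (Glul) 99.5-fold, at 9469, 8753 and 8884 TPM against 102.7 ± 0.625 TPM (SD, n = 3) in granule cells. Granule cell members named here sit at the receiving end of the glutamine cycle: the glutaminase Gls2 (4.28-fold), and the amino acid transporters Slc38a1 (5.08-fold) and Slc38a2 (5.06-fold). Summed TPM was 18740, 17421 and 18112 in astrocytes and 1361, 1331 and 1367 in granule cells.

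Genes of endfeet, gap junctions and water transport were higher in astrocytes for 12 of 13 (median −7.14), and the remaining one, Dtna, differed by −0.56. Mlc1, which forms a membrane complex with Hepacam, was 935-fold higher, Gja1 (connexin 43) 585-fold, Hepacam 360-fold, Gjb6 (connexin 30) 272-fold, Agt 155-fold, and the water channel Aqp4 141-fold, while the connexin Gjb2 was at −6.71 on the log2 scale. Gja1 was at 1367, 1605 and 1632 CPM in astrocytes and at 2.70, 2.79 and 2.38 CPM in granule cells (log2 fold change −9.19, standard error 0.12, adjusted p = 4.4e-13). The bicarbonate cotransporter Slc4a4 (3.91-fold), Dag1 (3.14-fold) and the chloride channel Clcn2 (2.84-fold) differed less. These smaller folds came with sizable granule cell levels, such as 76.8 TPM of Slc4a4 and 37.3 TPM of Dag1.

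Metabolic genes were divided into several lists. Among serine, glycine and folate enzymes 9 of 15 were higher in astrocytes and 1 in granule cells (median −2.51). Phgdh, the first enzyme of serine synthesis, was 1080-fold higher (525 TPM against 0.628), Gldc of the glycine cleavage system 410-fold, and Psat1 131-fold, while the mitochondrial folate enzyme Mthfd1l was 6.92-fold higher in granule cells (16.8 TPM against 2.04). Of 23 genes of fatty acid oxidation and ketone metabolism, 19 were higher in astrocytes and 0 in granule cells (median −3.08). Acsbg1, an acyl-CoA synthetase, was 499-fold higher (967 TPM against 2.20), with the carnitine transferase Cpt1a 288-fold and Hadh 259-fold. The list's summed TPM was 5365, 4861 and 5238 in astrocytes and 1024, 1032 and 1071 in granule cells. Glycolysis, glycogen and lactate transport was the most even of these lists, with 11 of 25 genes higher in astrocytes, 4 in granule cells and 10 that differed less than 2-fold (median −0.33), near the shares and the median over all genes tested (36.8%, 21.9% and −0.23). Its summed TPM was 21257 ± 964 in astrocytes and 16815 ± 334 in granule cells (SD, n = 3). Glycogen phosphorylases stood out on the astrocyte side, with Pygm 64.4-fold and Pygb 13.7-fold higher, as did Aldoc (59.0-fold) and Pfkfb3 (14.4-fold), which makes an activator of phosphofructokinase. On the granule cell side were Eno2 (9.11-fold), the glucose transporter Slc2a3 (6.64-fold), the lactate transporter Slc16a7 (6.33-fold) and hexokinase Hk1 (2.39-fold).

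Cholesterol synthesis and lipoprotein genes were higher in astrocytes for 22 of 28 and in granule cells for 2 (median −2.51). Next to Apoe and Clu these were led by the transcription factor Srebf1 (79.9-fold) and the sterol oxidase Msmo1 (29.2-fold, 495 TPM against 20.5). The granule cell members were the cholesterol exporter Abcg1 (11.3-fold, 68.5 TPM against 4.87) and the sterol isomerase Ebp (3.61-fold). Summed TPM was 41193 ± 979 in astrocytes, of which Apoe made 30677, and 1071 ± 45.7 in granule cells (SD, n = 3). Glutathione, antioxidant and metallothionein genes were higher in astrocytes for 12 of 21 and in granule cells for 0 (median −2.90). Mgst1 was 467-fold higher, the cystine transporter Slc7a11 328-fold, Mt1 293-fold (3185 TPM against 12.0) and Mt2 222-fold (1974 TPM against 9.73).

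Signalling pathways best known from neural progenitors were also represented on the astrocyte side. Of 24 genes of the Notch, hedgehog, FGF, EGF and BMP pathways, 20 were higher in astrocytes and 0 in granule cells (median −6.28). The inhibitor Id3 was 909-fold higher, the receptor Fgfr3 523-fold (980, 884 and 979 CPM against 2.00, 1.36 and 2.01), the hedgehog effector Gli3 416-fold and the BMP receptor Bmpr1b 353-fold. Among transcription factors of astrocyte identity 14 of 17 were higher in astrocytes (median −7.45), with Sox21 570-fold and Rfx4 409-fold below Emx2 and Lhx2. Nfix, of the nuclear factor I family, was higher in granule cells instead (2.47-fold, 473 TPM against 170). This family member is thus abundant in both groups, unlike the Sox and Lhx genes.

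Of 25 synapse organizer and adhesion genes, 14 were higher in astrocytes and 6 in granule cells (median −2.62). The shares over all genes tested were 36.8% and 21.9% (median −0.23). Proteins that astrocytes release to promote synapses or use to engulf them were on the astrocyte side: the glypican Gpc5 (1498-fold), the BMP antagonist Chrdl1 (1490-fold), Thbs4 (582-fold) and the phagocytic receptor Mertk (453-fold). In granule cells, Cbln3 and Cbln1 were joined by Nrxn3 (10.1-fold, 241 TPM against 18.3), a neurexin that binds cerebellins, and Lrrtm2 (5.71-fold). Summed TPM was 10077 ± 426 in astrocytes, most of it Sparcl1, and 5817 ± 181 in granule cells (SD, n = 3). Of 20 cytoskeletal genes, 9 were higher in granule cells and 6 in astrocytes (median 0.76), beside 21.9% and 36.8% over all genes tested. Tubb4a (16.2-fold), Stmn2 (15.7-fold), the neuronal intermediate filament Ina (13.2-fold) and Map1b (8.31-fold) led the granule cell side. Tubb2b (667-fold, 1217 TPM against 2.18), Gfap (626-fold, 834 TPM against 1.55), Vim (41.5-fold) and Ezr (26.9-fold) led the astrocyte side, so that both the tubulins and the intermediate filaments had members with opposite differences.

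**Figure D2:**
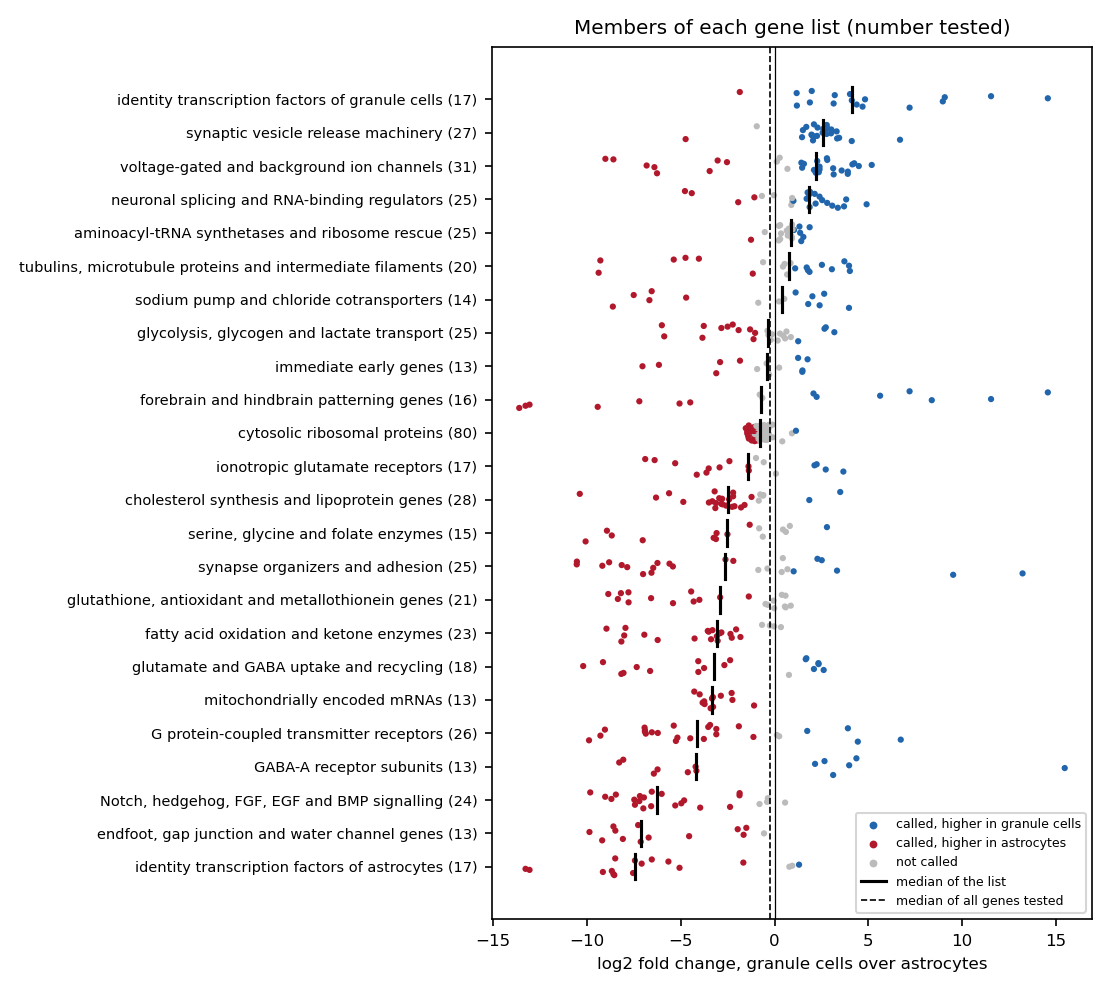
Each point is a member of a gene list at its log2 fold change of granule cells over astrocytes (x axis); bars mark the median of the list and the dashed line the median of all genes tested, −0.23. The medians run from −7.45 for astrocyte transcription factors to 4.12 for granule cell transcription factors.

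RNA-binding regulators of splicing were higher in granule cells for 16 of 25 genes and in astrocytes for 4 (median 1.84). Elavl2 (30.0-fold), Srrm4 (14.1-fold), which drives inclusion of short neuronal exons, Rbfox3 (log2 fold change 3.70) and Rbfox1 (10.4-fold) led the granule cell side. Rbfox3 was at 1247, 1275 and 1145 CPM against 92.4, 100.4 and 88.9 CPM, with no overlap. The astrocyte side held Khdrbs3 (27.5-fold), the glial regulator Qk (21.3-fold, 375 TPM against 18.7), Ptbp1 (3.84-fold), which represses neuronal exons, and Celf3 (2.11-fold, log2 fold change −1.08, and −0.99 without granule cell replicate 2). Khdrbs3 was at 146 TPM in astrocytes and 404 TPM in layer V cortical neurons, and Celf3 at 30.7 and 89.0 TPM, whereas Qk was at 10.9 TPM in layer V neurons.

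Of 13 immediate early genes, 4 were higher in granule cells and 5 in astrocytes (median −0.42). These lay near the shares and the median over all genes tested (21.9%, 36.8% and −0.23). Ier2 (3.39-fold), Jun (2.81-fold), Fosl2 (2.79-fold) and Dusp1 (2.39-fold) were higher in granule cells; the log2 fold change of Dusp1 was 1.25, and 0.95 without granule cell replicate 3. Egr3 (71.8-fold), Fosb (8.63-fold), Npas4 (7.49-fold) and Nr4a1 (3.59-fold) were higher in astrocytes, and Egr2, with 3 counts in all granule cell libraries together, had a ratio of 148 (95% counting interval from 50.3 to 719). Fos, Arc and Egr1 did not pass the test (−0.29, −0.42 and 0.24), and their libraries overlapped between groups. Junb passed it below 2-fold (−0.93; −1.10 without astrocyte replicate 1). Egr3 was at 131 TPM in layer V cortical neurons and 20.7 TPM in astrocytes. Npas4 varied within granule cells, at 0.646, 0.562 and 2.79 CPM.

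Genes of the translation apparatus and mitochondrially encoded mRNAs were set beside all genes tested. Of these, 21.9% were higher in granule cells and 36.8% in astrocytes (median −0.23). Of 27 symbols listed for aminoacyl-tRNA synthetase and ribosome rescue genes, 25 were found. Mars1 and Aars1, other symbols of the listed genes Mars and Aars, were not. Of the 25 genes, 6 were higher in granule cells and 1 in astrocytes (median 0.85). These were the rescue GTPase Gtpbp1 (3.66-fold), Gars (2.90-fold), Aars (2.68-fold) and Nars (2.58-fold) among others in granule cells, and Dars (2.39-fold) in astrocytes. Of 82 cytosolic ribosomal protein genes 80 were tested; 24 were higher in astrocytes, 1 in granule cells, and 52 differed less than 2-fold (median −0.80). Rpl10l and Rpl39l had no count in the 6 libraries. The largest differences were in Rps27 (2.90-fold, log2 fold change −1.54), Rps12 and Rpl41 (each −1.46) and Rpl31 (−1.41). Rps15a, higher in granule cells (1.14), turned to −0.63 with an offset for the length of the transcripts in use, and its TPM was lower in granule cells (171 against 242). Ribosomal protein genes have near-identical pseudogenes, which makes the counts of single members uncertain. Their summed TPM was 21160 ± 373 in granule cells and 30947 ± 557 in astrocytes (SD, n = 3). All 13 mitochondrially encoded mRNAs were higher in astrocytes (median −3.34), with summed TPM of 2510, 1982 and 2229 in granule cells and 23995, 22230 and 18185 in astrocytes. The most abundant, mt-Co1, was at 373 and 3341 TPM; the least different, mt-Nd3, overlapped between groups (−1.09, adjusted p = 0.035) and missed the threshold without granule cell replicate 1 (−0.76, adjusted p = 0.12), granule cell replicate 2 (−1.04, adjusted p = 0.10) or astrocyte replicate 1 (−0.56, adjusted p = 0.18). It also missed it with the replicate block (adjusted p = 0.051), with the transcript length offset (adjusted p = 0.058) and with all 6 cell types in the same fit (adjusted p = 0.19), so that its call is weak. Layer V cortical neurons had 675 TPM of mt-Co1. The tag is on Rpl22, a cytosolic ribosomal protein, and how mitochondrially encoded mRNAs entered the purified RNA was not tested.

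Related genes of which one member is known from neurons and the other from glia were set side by side as the neuronal member's share of the pair's TPM. In all 16 pairs that share was higher in every granule cell library than in every astrocyte library. In 8 pairs the members were called in opposite directions, in 11 the neuronal member was higher in granule cells, and in 13 the glial member was higher in astrocytes. In 10 pairs the more abundant member changed in every library of the groups. The glutamate receptor pair Grm4 and Grm3 went from 99.9 ± 0.02% Grm4 to 1.56 ± 0.22% (SD, n = 3), and the glutamine transporters Slc38a1 and Slc38a3 from 99.3 ± 0.32% Slc38a1 to 5.03 ± 0.37% (SD, n = 3). These pairs exchanged members almost fully.

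In glycolysis, Aldoa made up 96.1 ± 0.35% of its pair with Aldoc in granule cells and 17.8 ± 0.88% in astrocytes (SD, n = 3), although Aldoa itself differed by only 0.87 on the log2 scale (1.02 with the transcript length offset). Eno2 made up 72.6 ± 0.87% of the enolase pair in granule cells and 13.5 ± 1.37% in astrocytes (SD, n = 3); its partner Eno1 had a log2 fold change of −1.04, and of −0.97 without granule cell replicate 2 or astrocyte replicate 3. The glucose transporter Slc2a3 held 92.2 ± 0.25% against 20.4 ± 1.98%, and the lactate transporter Slc16a7 held 50.2 ± 1.70% against 5.84 ± 1.03% (SD, n = 3). The brain fatty acid binding proteins went from 97.5% Fabp3 to 4.87%. The larger member of the aldolase, enolase, glucose transporter and fatty acid binding protein pairs was thus a different gene in each cell type.

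In other pairs a single member was called, or both members were called in the same direction. A member that was not called could still pass the test in the opposite direction, below 2-fold. Both chloride cotransporters, Slc12a5 and Slc12a2, were higher in granule cells, and the share of Slc12a5 was 84.5 ± 0.78% against 79.7 ± 1.03% (SD, n = 3). Id2 and Id4 were both higher in astrocytes (−1.86 and −6.55). Slc1a1, the neuronal glutamate transporter, differed by 0.77 while Slc1a2 fell by 8.17 on the log2 scale from astrocytes to granule cells, which took the share of Slc1a1 from 0.405% in astrocytes to 64.3% in granule cells. Ptbp2, the neuronal paralog of Ptbp1, differed by 0.95, just below the 2-fold line, and lay above it without granule cell replicate 2 (1.05) or astrocyte replicate 2 (1.00). Atp1b1 was 3.47-fold higher in granule cells, and its partner Atp1b2 differed by −0.87, below the 2-fold line. Kcnk9 was 4.83-fold higher in granule cells, but Kcnk1 was the larger of the 2 in all 6 libraries and did not differ (0.12, adjusted p = 0.082).

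**Figure D3:**
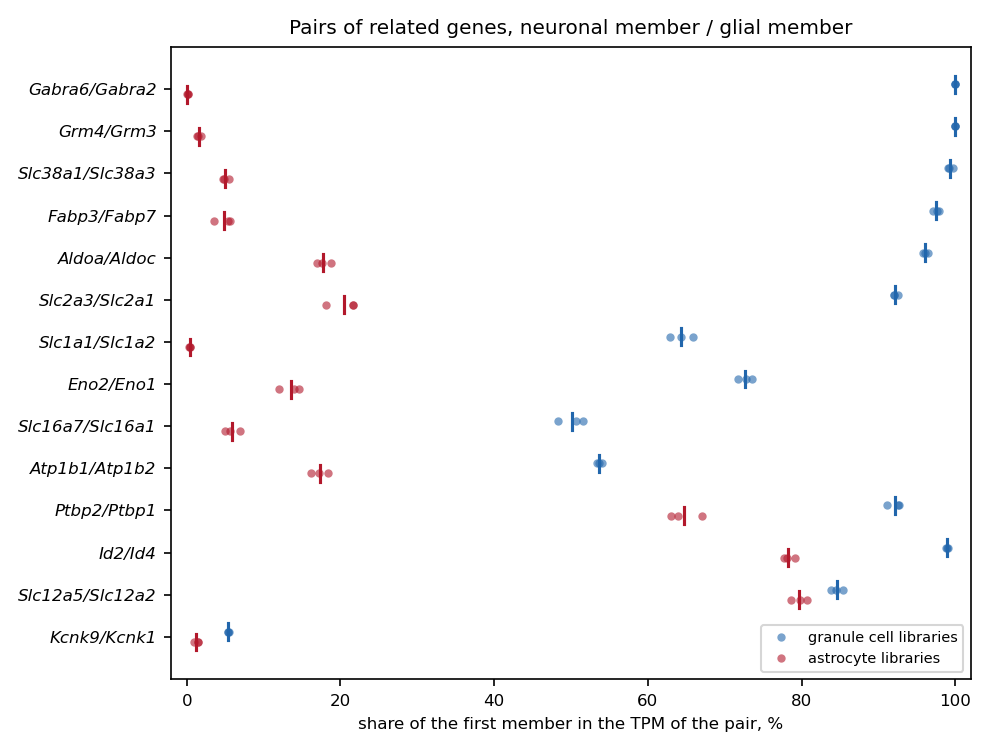
For 14 of the 16 pairs of related genes, points give the share of the neuronal member in the pair's TPM (%, x axis) in each library, and bars give the mean of 3 libraries. In every pair the granule cell libraries lie to the right of the astrocyte libraries, for example at 97.5% against 4.87% for Fabp3 and Fabp7 and at 5.43% against 1.26% for Kcnk9 and Kcnk1.

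Markers of other cells were counted in both groups, as the purified mRNA can hold RNA of neighbouring cells. Of 10 markers of cortical excitatory neurons, 9 were higher in astrocytes than in granule cells and 0 the other way (median −6.64). Their summed TPM was 1078, 1015 and 826 in astrocytes, 23.2, 19.7 and 18.6 in granule cells, and 7167 ± 166 (SD, n = 3) in layer V cortical neurons. Nrgn was the most abundant of them in astrocytes (565 TPM) and Cux2 in granule cells (16.0 TPM); Fezf2 had no count in granule cells and was at least 453-fold higher in astrocytes against a floor of 3 counts per library. All 8 markers of cortical interneurons were higher in astrocytes with a median of −5.96 (350 ± 34.4 TPM in sum against 8.27 ± 0.638, SD, n = 3), with Sst the most abundant there (131 TPM) and Gad1 in granule cells (5.14 TPM). These neuronal mRNAs move with the same groups as several genes above that are higher in astrocytes and more abundant in layer V neurons, among them Stx1a, Chrm1, Gabra3, Gabra5, Grin2b, Egr3, Kcnc2 and Khdrbs3. Their part in those results was not tested.

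Markers of other glia and of vessels followed the same direction. All 10 oligodendrocyte markers (1307, 1212 and 1069 TPM in sum in astrocytes; 153, 134 and 126 TPM in granule cells), with Mbp the most abundant in both, were higher in astrocytes (median −3.85). So were all 5 markers of their precursors (103, 99.1 and 92.5 TPM against 0.750, 0.779 and 0.892), led by Tmem100 in astrocytes and Gpr17 in granule cells (median −5.08). The same held for all 10 microglial markers (168, 163 and 132 TPM against 10.8, 9.72 and 11.8, median −6.44), and all 10 markers of endothelium and pericytes (182, 192 and 166 TPM against 10.5, 7.23 and 12.6), led by Vtn in astrocytes and Itm2a in granule cells (median −4.35). All 5 Bergmann glia markers, which forebrain astrocytes also express, were higher in astrocytes (1402, 1549 and 1734 TPM against 18.9, 16.8 and 16.5), led by Fabp7 there and by Hopx in granule cells (median −5.38). Apart from these, cerebellar neurons other than granule cells were traced by 8 Purkinje cell markers, of which 4 were higher in granule cells and 2 in astrocytes (222, 209 and 207 TPM in granule cells, led by Rgs8; 177, 177 and 167 TPM in astrocytes, led by Car8, median 0.85). Of 9 markers of cerebellar interneurons and brush cells 8 were tested, Lmx1a having too few counts, and 2 were higher in granule cells and 4 in astrocytes (65.9, 63.4 and 56.6 TPM, led by Eomes; 207, 203 and 165 TPM, led by Sst, median −1.42). None of these other-cell markers apart from Fezf2 was at 0 in all libraries of a group, and their part in the results was not tested.

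Beyond the level of a gene, the groups differed in the shares of its transcripts. Shares of a gene's transcripts were tested in 8945 genes with at least 100 counts in each library, and differed at an adjusted p of 0.05 or less in 5540 of them (61.9%; edgeR's diffSpliceDGE). A switch was called where 1 transcript had the highest TPM in all granule cell libraries, another in all astrocyte libraries, and both shares moved at least 20 percentage points. By this rule 319 genes switched (3.57%), of which 81 were also higher in granule cells, 66 in astrocytes, and 172 in neither. On shares of estimated counts in place of TPM, only 183 of the 319 kept the same pair of transcripts. In 260 switches both transcripts are annotated as protein-coding. The transcript of granule cells is annotated with a retained intron in 8 switches and for nonsense-mediated decay in 10, and that of astrocytes in 7 and 12. Among coding switches the granule cell transcript was the longer in 172 and the astrocyte transcript in 88, with median lengths of 3513 and 2722 bases.

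Exon structures were available in GENCODE release 21 for both transcripts of 251 coding switches. The coding bases were the same in 34 and differed in 217; first exons did not overlap in 97, which included 21 of those with the same coding bases, and last exons did not overlap in 43. The granule cell transcript had more coding bases in 133 and the astrocyte transcript in 79. Some annotated coding sequences in these counts are not a whole number of codons. Examples are 415 bases in Lsamp-204 and 634 in Olfm3-203 of astrocytes, and 700 in Gpt-210 of granule cells. The comparison of coding length is uncertain for such transcripts. In 50 switches the coding sequences differed by 1 whole exon only, and the length of that exon ran from 18 to 165 bases with a median of 49.5. The exon was in the granule cell transcript in 32 and in the astrocyte transcript in 18. All 14 such exons of at most 30 bases were in the granule cell transcript, and 0 were in the astrocyte transcript.

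The receptor tyrosine kinase gene Ntrk2 (chromosome 13 from 58806569 to 59133970), whose product TrkB binds BDNF, had one of the largest switches. Ntrk2-201, the full-length receptor with 2463 coding bases, made up 90.1%, 93.0% and 89.7% of the gene's TPM in granule cells and 3.16%, 3.42% and 2.67% in astrocytes. Ntrk2-202, with 1428 coding bases and without the kinase domain, made up 2.93%, 2.26% and 2.06% in granule cells and 78.5%, 79.0% and 75.9% in astrocytes (adjusted p = 1.7e-23). No library was intermediate. The gene as a whole was 8.51-fold higher in astrocytes, at 715 TPM against 70.9. The pyruvate kinase gene Pkm exchanged the exons that define its M1 and M2 forms. Pkm-202, with the M1 exon, made up 66.7 ± 0.73% in granule cells and 21.5 ± 2.11% in astrocytes (SD, n = 3), while Pkm-201, with the M2 exon, made up 33.2%, 33.0% and 31.5% against 78.2%, 75.2% and 79.7% (adjusted p = 8.3e-12). Both forms were present in both groups, and the gene differed by only 0.63 on the log2 scale.

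Several switches added short exons to the transcript of granule cells. Src-202 made up 68.9%, 68.0% and 76.0% in granule cells and 7.31%, 7.60% and 0.12% in astrocytes, where Src-201 made up 60.2%, 56.2% and 48.7% (6.74%, 1.00% and 4.55% in granule cells; adjusted p = 1.8e-06). The kinase's coding sequence grew from 1605 to 1623 bases by an exon of 18 bases, known as the neuronal N1 insert. Clta, a clathrin light chain, used Clta-205 (54.2 ± 1.58% against 22.4 ± 1.37%, SD, n = 3) with 2 exons of 54 and 36 bases that Clta-206 (2.10 ± 0.30% against 56.4 ± 1.09%, SD, n = 3) lacks. The gene was 2.03-fold higher in granule cells, and its log2 fold change of 1.02 became 0.98 without astrocyte replicate 1 and 0.88 with upper quartile scaling. The adhesion molecule gene Cadm1 used an exon of 33 bases in Cadm1-204 (62.9 ± 0.56% against 8.98 ± 1.06%, SD, n = 3) and one of 84 bases in its place in Cadm1-203 (10.5 ± 0.24% against 49.1 ± 1.70%, SD, n = 3). Exons of 75 bases in Sbf2, 63 in Plod2 and 33 in Wdr35 were likewise present in the granule cell transcript and absent from its partner.

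The following sequences show coding stretches that separate the transcripts of Ntrk2, Pkm, Src, Clta and Cadm1, since such stretches are what the switches change. For Ntrk2 only the stretch of Ntrk2-202 is given, and the 1070 coding bases that Ntrk2-201 has and Ntrk2-202 lacks are left out. They are from GENCODE release 21 transcripts on the plus strand of GRCm38, 5′ to 3′; capitals mark a coding stretch that the transcript named has and its partner in the switch lacks, and lower case gives up to 15 neighbouring bases of the same transcript. The Clta exons adjoin each other, so that the lower case bases between them are also absent from Clta-206. The end of the Ntrk2-202 coding sequence lies at chr13:58932023-58932057, the Pkm exons at chr9:59675029-59675195 and chr9:59675568-59675734, the Src exon at chr2:157458843-157458860, the Clta exons at chr4:44030215-44030268 and chr4:44031400-44031435, and the Cadm1 exons at chr9:47829377-47829409 and chr9:47818734-47818817. The Pkm exons are equal in length, at 167 bases.
Ntrk2-202 end of coding sequence: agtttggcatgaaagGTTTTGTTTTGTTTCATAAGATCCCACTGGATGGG
Pkm-202 exon 9: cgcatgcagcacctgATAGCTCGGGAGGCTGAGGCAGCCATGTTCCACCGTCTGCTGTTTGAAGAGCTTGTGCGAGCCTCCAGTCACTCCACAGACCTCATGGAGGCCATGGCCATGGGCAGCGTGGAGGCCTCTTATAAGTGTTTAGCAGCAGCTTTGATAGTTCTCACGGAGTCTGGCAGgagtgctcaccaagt
Pkm-201 exon 9: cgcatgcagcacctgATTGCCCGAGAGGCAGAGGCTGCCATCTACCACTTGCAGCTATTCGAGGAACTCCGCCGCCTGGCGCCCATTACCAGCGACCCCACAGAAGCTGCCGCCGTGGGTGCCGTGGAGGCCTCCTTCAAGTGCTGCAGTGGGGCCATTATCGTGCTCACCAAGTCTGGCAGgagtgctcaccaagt
Src-202 exon 6: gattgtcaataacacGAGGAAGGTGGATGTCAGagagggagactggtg
Clta-205 exon 5: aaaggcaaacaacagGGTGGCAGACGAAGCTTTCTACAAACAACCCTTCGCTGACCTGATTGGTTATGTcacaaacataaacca
Clta-205 exon 6: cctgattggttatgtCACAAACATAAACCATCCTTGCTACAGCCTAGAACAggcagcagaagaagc
Cadm1-204 exon 8: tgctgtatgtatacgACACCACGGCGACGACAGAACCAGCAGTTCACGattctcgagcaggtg
Cadm1-203 exon 8: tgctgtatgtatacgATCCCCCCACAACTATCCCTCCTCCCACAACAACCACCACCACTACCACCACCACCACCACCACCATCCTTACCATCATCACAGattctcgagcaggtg

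Among the 12 coding switches with the largest summed change of share, some genes differed in level by less than 2-fold. Capzb, a subunit of the actin capping protein, was at a log2 fold change of 0.06 (adjusted p = 0.27), with 192 ± 1.55 and 184 ± 6.73 CPM (SD, n = 3). Yet Capzb-204 made up 99.5%, 99.2% and 99.0% in granule cells and 21.8%, 21.4% and 17.0% in astrocytes, where Capzb-203 took 74.7%, 76.7% and 79.6% (0.39%, 0.36% and 0.57% in granule cells; adjusted p = 1.8e-15). The transcripts differ by coding stretches of 85 and 100 bases. Pcyt1b, an enzyme of phosphatidylcholine synthesis, used Pcyt1b-201 alone in granule cells (100.0% in each library) and Pcyt1b-202 at 72.5 ± 4.45% in astrocytes (SD, n = 3), which start in different first exons, while the gene differed by 0.19 on the log2 scale (adjusted p = 0.023). Phactr3, a regulator of protein phosphatase 1 and actin, went from 82.4 ± 0.72% Phactr3-204 to 72.4 ± 1.34% Phactr3-201 (SD, n = 3), also by first exons, and the gene differed by −0.83 (adjusted p = 1.1e-07).

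The rest of these 12 included genes with low counts in granule cells. Fgfbp3 (10.5 ± 3.02 CPM in granule cells, SD, n = 3) used Fgfbp3-202 at 100.0% in each granule cell library and Fgfbp3-201 at 100.0%, 100.0% and 99.5% in astrocytes, and Plod2 (2.88 ± 0.309 CPM, SD, n = 3) used Plod2-203 at 93.0 ± 3.92% against 8.54 ± 7.93% (SD, n = 3). Sh3pxd2b and Nkain4 went from 92.5 ± 12.9% Sh3pxd2b-203 and 76.0 ± 3.88% Nkain4-202 in granule cells to 96.1 ± 1.19% Sh3pxd2b-201 and 95.1 ± 1.29% Nkain4-201 in astrocytes (SD, n = 3). Fgfbp3, Plod2, Sh3pxd2b and Nkain4 were no longer tested when the minimum was raised to 500 counts in each library. Sbf2, a phosphoinositide phosphatase family member, and Wdr35, of ciliary transport, had granule cell transcripts at 91.4 ± 2.91% and 95.9 ± 2.28% (SD, n = 3). Elavl1, an RNA-binding protein, kept the same 978 coding bases in both transcripts and changed the first exon, from 96.3 ± 2.29% Elavl1-201 to 68.0 ± 1.11% Elavl1-204 (SD, n = 3). Elavl1-201 is 5743 bases long and Elavl1-204 2317, and the gene's log2 fold change of 1.33 became 0.30 with the transcript length offset. Lsamp, an adhesion molecule, went from 90.3 ± 1.34% Lsamp-202, of 8794 bases, to 62.3 ± 0.46% Lsamp-204, of 634 bases (SD, n = 3), and its log2 fold change of −0.77 became −2.39 with that offset; on shares of counts in place of TPM this switch was not called.

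The 30 genes listed for known transcript choice were chosen with earlier results of these data known. Over all genes tested, 21.9% were higher in granule cells and 36.8% in astrocytes (median −0.23), and 3.57% of genes tested for transcript use switched. Of the 30 genes, 12 were higher in granule cells and 8 in astrocytes (median 0.54), and 8 switched. Besides Ntrk2, Src, Pkm, Clta and Cadm1 these were Ncam1, Gpm6b and Ank2. Ncam1, which did not differ in level (0.13, adjusted p = 0.16), went from 45.9 ± 1.18% Ncam1-204 in granule cells to 70.3 ± 1.10% Ncam1-201 in astrocytes (SD, n = 3), with 2544 and 2175 coding bases and different last exons. Gpm6b, a proteolipid family gene, was 21.9-fold higher in astrocytes; Gpm6b-206 made up 60.0%, 51.9% and 53.9% in granule cells and at most 0.02% in an astrocyte library, and Gpm6b-203 made up 11.8 ± 1.54% against 39.1 ± 0.71% (SD, n = 3). In Ank2 the leading granule cell transcript, Ank2-216, is annotated with a retained intron (45.7 ± 2.52% against 20.2 ± 6.59%, SD, n = 3), and Ank2-201 led in astrocytes; this switch was not called on shares of counts or among protein-coding transcripts alone. Other genes of the list moved shares without meeting the rule. App-201 made up 97.0 ± 0.15% in granule cells and 75.6 ± 2.33% in astrocytes, and Bin1-201 91.2 ± 0.59% and 39.8 ± 3.61% (SD, n = 3), and each led in both groups.

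**Figure D4:**
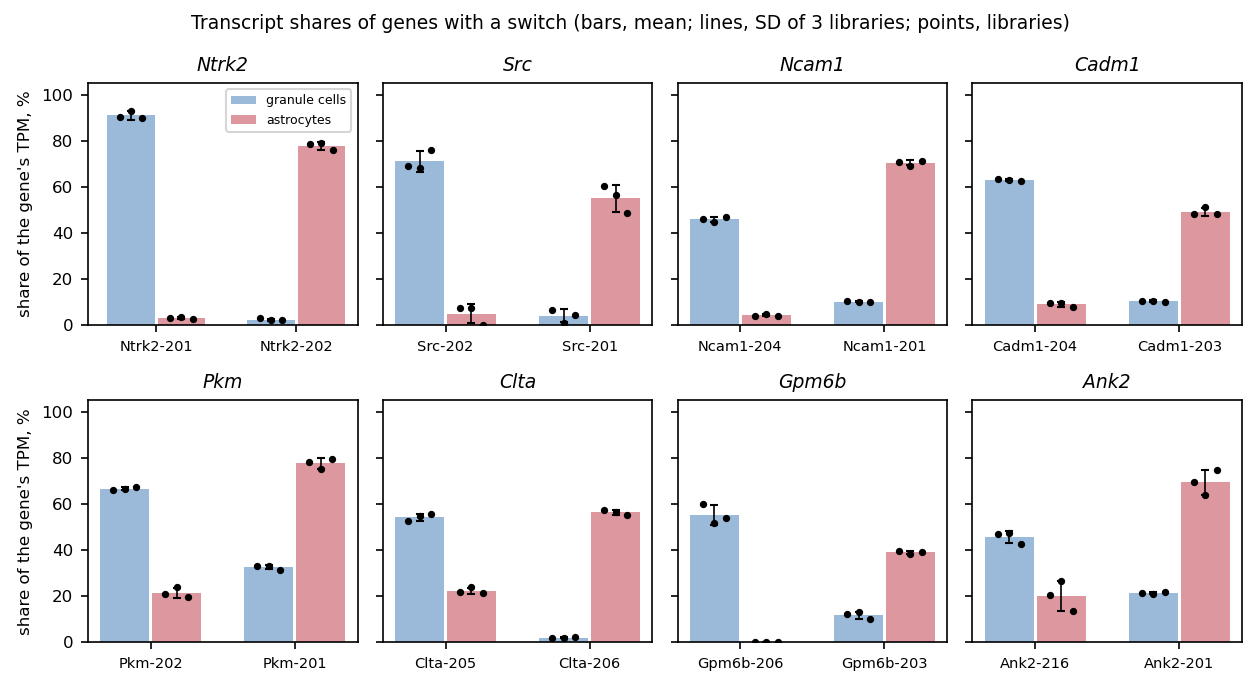
Bars give the mean share (%) of a gene's TPM held by the leading granule cell transcript (left) and the leading astrocyte transcript (right) in each group, with the SD of 3 libraries as lines and each library as a point. For Ntrk2 the shares go from 91.0% to 3.08% and from 2.42% to 77.8%.

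With 3 libraries against 3, an exact permutation test of a single value cannot go below p = 0.1, so the calls rest on edgeR's fit across all genes. Replicates are separate mice, while tissue, Cre line and tamoxifen differ between the groups throughout.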

How the data were processed

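RiboTag mRNA of 3 cerebellar granule cell and 3 astrocyte libraries, all of batch 1, was compared. Per the processing notes, the authors trimmed reads with cutadapt 3.5, quantified transcripts with kallisto 0.46.2 on a GENCODE mouse index (GRCm38). The deposited values are estimated counts, which are not normalized, and TPM of each transcript. Estimated counts were summed per gene and rounded. For 106 symbols with more than 1 gene identifier, the one with the most counts was used. Genes reaching 5 counts in 3 or more of these 6 libraries were tested by edgeR 4.0.16 (quasi-likelihood, TMM) in R 4.3.3, with Benjamini-Hochberg adjustment; a call needs an adjusted p no larger than 0.05 together with a difference of 2-fold or more. Transcript use was tested by diffSpliceDGE on transcripts passing the same filter, in genes with at least 100 counts in each library; a switch needs an adjusted p of at most 0.05, different leading transcripts in all libraries of the groups, and shares of TPM that move at least 20 percentage points in opposite directions. DESeq2 1.42.0 and limma 3.58.1 served as alternatives, and tables and plots were made in Python 3.11.15 (pandas 2.3.3, numpy 2.4.6, scipy 1.17.1, matplotlib 3.10.9). Coordinates and exons are from GENCODE release 21 (GRCm38), an older release than the one the study's methods name for quantification. Levels in layer V cortical neurons, given for reference, are means of their 3 batch 1 libraries. The tests were tried on simulated data.

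Named are the markers Gabra6 and Aldh1l1; in each direction the 12 called protein-coding genes with the largest fold among those with at least 50 CPM and no overlap, and the 8 with the largest difference of TPM; up to 4 called members per direction of each list, all members of lists of at most 13 genes; both members of each pair of related genes; the 12 coding switches with the largest change and every switch among the transcript choice genes; and, of other-cell markers, the most abundant and those at 0. App and Bin1 transcripts were named after their values were seen. The members and lists were chosen with earlier results of these data known. Alternatives covered scaling, test, count filters, transcript length, batch, replicate blocks and leaving out each replicate. Floors and intervals cover counting error only. Some results that this rule would name are not reported here.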

Additional observations from a re-analysis of the deposited data

How the results depend on the processing

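The direct comparison was repeated under 19 alternatives for genes and 15 for transcript switches. With the replicate number as a block (the replicate block), 4342 genes were higher in granule cells and 7305 in astrocytes, and 312 switches were called. Deviations from the group mean correlated at 0.165, 0.118 and 0.018 between libraries of the same number. Not every library correlated best with its own number. With 3 libraries in each group, these correlations cannot decide whether the replicate numbers pair the groups. Upper quartile scaling gave 3844 and 7732 genes, a test against a 2-fold difference 3709 and 6706, and an offset for transcript length 4529 and 7172. Other sets of genes gave 3628 and 5770 (protein-coding only), 4241 and 6568 (at least 10 counts in 3 libraries) and 4423 and 8320 (no count filter). Leaving out each replicate in turn gave 4300 to 4608 genes higher in granule cells, 7098 to 7324 higher in astrocytes and 328 to 348 switches. On shares of estimated counts in place of TPM, 290 switches were called and only 183 of the 319 kept the same pair of transcripts. A threshold of 40 percentage points in place of 20 gave 97 switches of 319, by its own construction, and one of 10 points gave 466. A minimum of 500 counts per gene gave 261. In all 15 alternatives 53 switches kept the same pair of transcripts, a count that the threshold of 40 points limits to at most 97. In every fit that left out a replicate, 285 kept the same pair. Of 4826 values of the 254 named genes under alternatives, 4796 kept their direction and their side of the threshold. Rps15a reversed with the transcript length offset (−0.63); the cause was not tested. Another 22 values, in Celf3, Clta, Dusp1, Elavl1, Eno1 and mt-Nd3, no longer met the call, and 7, in Aldoa, Atp1b2, Junb, Lsamp and Ptbp2, newly met it. Among named genes with more than 3 counts in both groups the 95th percentile of the shift in log2 fold change was 0.18, and the largest was 2.12. Depth limits the folds of genes with few counts in one group; those with 0 counts are given as bounds and those with 1 to 3 with counting intervals, while folds on 4 or more counts in a group are given without an interval and stay imprecise.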
